A study of Mus musculus with 6 samples.

Results

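Genes that encode neutral amino acid transporters outside the *Slc7* family were followed in mouse splenic CD4+ T cells treated with a MAPK13 inhibitor. The genes were chosen by symbol, as a selection of 9 carriers of neutral and aromatic amino acids from the *Slc1*, *Slc38*, *Slc43*, *Slc6* and *Slc16* families, which hold further such carriers. That choice was made with earlier results of these data known. All 9 are listed among the 35602 genes of the count matrix, and all 9 passed the filter on low counts that left 16269 genes for testing. Each was also listed among the 34714 genes of the separate tables for replicate 1.

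Naive T cells take up few nutrients, and stimulation through the T cell receptor and CD28 is known to raise amino acid uptake as the cells grow and divide. Neutral amino acids cross the plasma membrane by several routes: sodium-dependent exchangers of the ASC system, sodium-coupled carriers of system A that concentrate small amino acids, and sodium-independent carriers that let branched-chain or aromatic amino acids move along their gradients. Some products of the *Slc7* family exchange large neutral amino acids for those that the other carriers have brought in, so that the families work as a network.

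CD4+ T cells from mouse spleen were stimulated with antibodies to CD3 and CD28 and given either MAPK13-IN-1, a compound that blocks the kinase encoded by *Mapk13*, or its solvent DMSO, and each group has 3 libraries of polyadenylated RNA. The labels of replicates 2 and 3 give wild-type cells in RPMI medium with fetal bovine serum, 17.1 µM inhibitor or 0.1 µl DMSO, and an addition after day 1, whereas the series describes 72 h of stimulation in the presence of either agent. For replicate 1 the labels give only the tissue, the cells and the agent, and strain, age and the number of mice per library are not given in the labels of any library. Replicates 2 and 3 were made with poly-T beads and deposited as counts, with totals of 26874805 and 28487403 for DMSO and 33854760 and 32617702 for MAPK13-IN-1. Replicate 1 of each group came from a stranded library kit and was deposited as normalized values taken to be FPKM, fragments relative to the length of the gene and the size of the library. That unit was inferred from the values, the depth of this pair is unknown, and with 1 library per group it entered no test. Nothing in the labels says that replicates came from separate cultures or animals, so p-values measure only the spread between these libraries, which may be technical.

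The labelled cell type was checked against marker genes before the transporters. Levels are given as CPM (counts relative to the library total, after TMM scaling) in the order DMSO replicates 2 and 3, then MAPK13-IN-1 replicates 2 and 3. *Cd4* was at 275, 276, 267 and 283 CPM (log2 fold change 0.00, Benjamini-Hochberg adjusted p = 0.993 in edgeR). Summed over 10 CD4 T cell markers the level was 2817, 2838, 1641 and 1804 CPM, with 8 of the 10 lower and 1 higher. The most abundant of them, *Il2ra*, the alpha chain of the interleukin-2 receptor, was at 963, 963, 367 and 429 CPM. Replicate 1 had sums of 1447 FPKM with DMSO and 1253 FPKM with MAPK13-IN-1 for the same list.

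B cell markers were present in every library of a preparation labelled as CD4+ T cells. Their sum over 10 genes was 1141, 1119, 1310 and 1333 CPM, and 7 of the 10 were higher and 2 lower with MAPK13-IN-1. *Pax5*, a transcription factor of B cells and the most abundant of the list, was at 178, 168, 263 and 271 CPM. In replicate 1 the sum was 52.3 FPKM with DMSO and 36.5 FPKM with MAPK13-IN-1, and *Pax5* was at 2.59 and 1.27 FPKM. Of the marker lists of other cells, the erythroid list summed to 10.5, 10.2, 91.0 and 66.2 CPM, with 5 of 7 genes tested higher and 1 lower and *Hbb-bs* most abundant. The macrophage and dendritic cell list summed to 13.5, 12.8, 43.1 and 36.0 CPM, with 6 of 8 genes higher, 0 lower and *Cd68* most abundant.

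The remaining lists were at low levels. The CD8 pair was lower for 2 of 2 genes and summed to 11.7, 10.9, 5.49 and 7.85 CPM, with *Cd8b1* most abundant. Platelet markers summed to 9.92, 9.04, 17.3 and 18.4 CPM, with 2 of 2 genes tested higher, *Itga2b* most abundant and *Ppbp* at 0 counts in all 4 libraries. Neutrophil markers summed to 0.233, 0.220, 0.619 and 0.885 CPM, with 1 gene tested, *Mpo* as the most abundant gene, and *S100a9* at 0. No NK cell marker passed the filter, the highest sum was 0.507 CPM, the most abundant gene was *Klrb1c* and *Klra8* was at 0. FPKM sums in replicate 1 with DMSO and with MAPK13-IN-1 were 1.00 and 2.03 for the erythroid list, 3.29 and 11.0 for macrophages and dendritic cells, and 3.49 and 8.39 for CD8. They were 0.965 and 1.95 for platelets, 0.656 and 0.425 for neutrophils and 0.0909 and 0.173 for NK cells. The part of these cell markers in the transporter results was not tested, and in bulk RNA fewer cells of a type and less RNA per cell cannot be told apart.

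Of the 9 transporter genes, 5 were lower, 1 was higher and 3 did not pass the test with MAPK13-IN-1, where a call means a quasi-likelihood p-value from edgeR that stays under 0.05 after Benjamini-Hochberg adjustment over all genes. Across all genes tested, 63.8% were called in either direction, 32.3% lower and 31.5% higher. That even split rests on the scaling, since 4304 genes were lower and 6170 higher with library totals alone, against 5252 and 5122 with TMM. The share of the transporters called, 66.7%, lay near that background, and the share called lower was 55.6%. A fall of at least 2-fold was called for 4 of the 9, *Slc6a9*, *Slc16a10*, *Slc1a4* and *Slc1a5*, against 10.4% of all genes. Because the genes were chosen with earlier results of these data known, such shares describe the selection and are not independent evidence. The median log2 fold change of the 9 genes was −0.35 and that of all genes 0.01, and with scaling by library totals alone these medians were −0.23 and 0.14. The median of the CD4 T cell markers, which also fell in most cases, was −0.97. The CPM of the groups did not overlap for 6 of the 9, beside 83.0% of all genes.

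Replicate 1 gave a separate view from the other library kit, with 8 of the 9 genes at 1 FPKM or more in either library. On the scale of log2(FPKM + 1), 7 of these 8 were below 0, beside 43.5% of the 11510 genes at this level. The 7 include *Slc43a1*, which was nearly unchanged at −0.01. A ratio at least 2-fold lower was found for 3 of the 8, *Slc6a9*, *Slc1a4* and *Slc16a10*, beside 1.91% of those genes. The limit from the choice of genes applies to these shares as well. The pseudocount shrinks such ratios towards 0 for genes with low values.

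**Figure D1:**
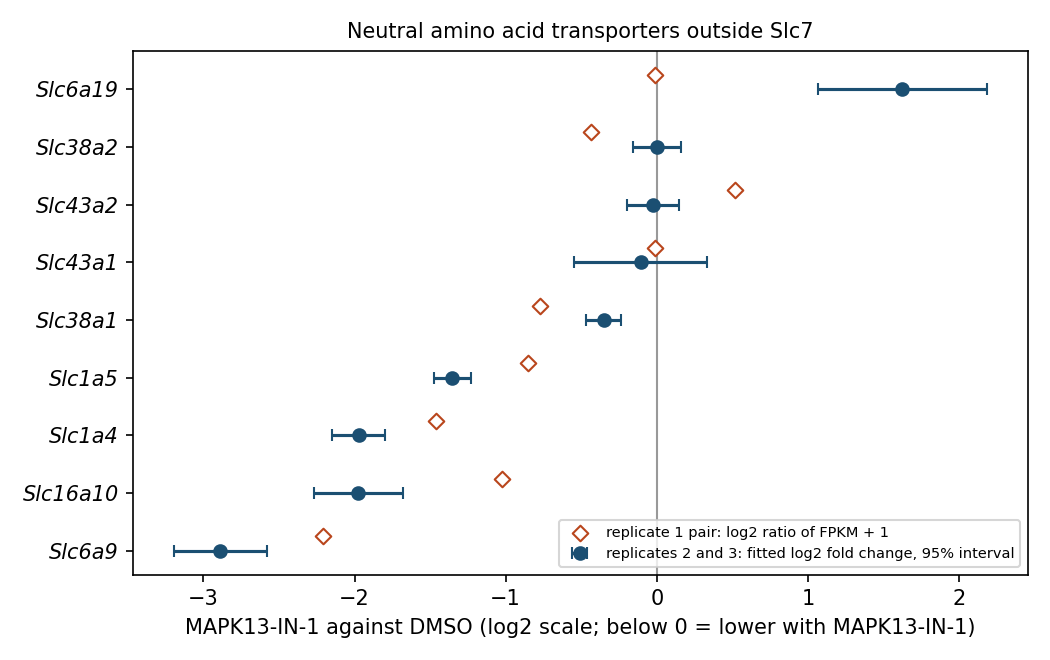
Log2 fold change of each transporter gene with MAPK13-IN-1 against DMSO (x axis, log2 scale) by gene (y axis). Filled circles are the edgeR estimates from replicates 2 and 3 (2 libraries per group), and bars are 95% confidence intervals derived from the test statistic. Open diamonds are the log2 ratios of FPKM + 1 in the replicate 1 pair, which have no error. *Slc6a9* lies furthest below 0 in both, at −2.89 and −2.21, whereas *Slc6a19* is at 1.63 in the former and −0.01 in the latter.

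The ASC exchangers swap small neutral amino acids such as alanine, serine and cysteine in a sodium-dependent way, and the product of *Slc1a5* (ASCT2) also carries glutamine. *Slc1a5* lies at chr7:16781340-16798274 on the plus strand (GRCm38, GENCODE M21). It had 14756 and 16584 counts with DMSO and 8055 and 7971 with MAPK13-IN-1, or 572, 609, 227 and 235 CPM. Both DMSO libraries were above both MAPK13-IN-1 libraries, with a gap far wider than the spread within either group. The mean was 591 ± 26.5 CPM with DMSO and 231 ± 5.85 CPM with MAPK13-IN-1 (SD, n = 2 per group), a 2.56-fold fall. The log2 fold change was −1.35 (standard error 0.0552, 95% confidence interval −1.48 to −1.23, Benjamini-Hochberg adjusted p = 3.73e-08 in edgeR). Replicate 1 was lower in the same direction, with 211 FPKM for DMSO and 116 FPKM for MAPK13-IN-1 (log2 ratio −0.85).

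*Slc1a4* (ASCT1), at chr11:20302180-20332713 on the minus strand, encodes an exchanger of alanine, serine, cysteine and threonine. Its counts were 2381 and 2555 with DMSO and 793 and 852 with MAPK13-IN-1, and its levels 92.3, 93.9, 22.3 and 25.1 CPM. The groups did not overlap, and the log2 fold change was −1.97 (95% confidence interval −2.15 to −1.80), 3.92-fold lower. The fall was larger than that of *Slc1a5*, and the confidence intervals of the fold changes did not overlap. Per length, *Slc1a4* stood at 17.2% and 16.4% of *Slc1a5* in the DMSO libraries and at 10.5% and 11.4% in the MAPK13-IN-1 libraries. Its share of *Slc1a5* in replicate 1 was 5.77% with DMSO and 3.25% with MAPK13-IN-1. With 2 libraries against 2, a two-sided exact permutation test of such a ratio cannot give a p below 0.333.

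The system A carriers bring in small neutral amino acids together with sodium and are known for glutamine and alanine uptake. *Slc38a1* (SNAT1) and *Slc38a2* (SNAT2) lie next to each other on the minus strand of chromosome 15, at chr15:96571418-96642913 and chr15:96687392-96699730, 44.5 kb apart. *Slc38a1* had 6687 and 7223 counts with DMSO and 7295 and 6973 with MAPK13-IN-1. After scaling these were 259, 265, 205 and 206 CPM, so the groups, which overlapped in raw counts, did not overlap in CPM. The level with MAPK13-IN-1 was 78.4% of that with DMSO, a log2 fold change of −0.35 (standard error 0.0526, 95% confidence interval −0.47 to −0.24, Benjamini-Hochberg adjusted p = 0.000192 in edgeR). Scaling by library totals alone gave −0.23, still past the threshold. The replicate 1 values of *Slc38a1* were 49.9 FPKM for DMSO and 28.8 FPKM for MAPK13-IN-1 (log2 ratio −0.77).

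*Slc38a2* did not pass the test. It had 4889 and 4938 counts with DMSO and 7059 and 5861 with MAPK13-IN-1, or 189, 181, 199 and 173 CPM, and the groups overlapped. The log2 fold change was 0.00 (95% confidence interval −0.15 to 0.16, Benjamini-Hochberg adjusted p = 0.975 in edgeR), an interval of 0.898 to 1.12 times the DMSO level under TMM scaling. With library totals alone the log2 fold change of *Slc38a2* was 0.13 and did not pass either. Its replicate 1 values were 39.0 FPKM with DMSO and 28.6 FPKM with MAPK13-IN-1 (log2 ratio −0.43). The ratio of *Slc38a2* to *Slc38a1* per length was 1.43 and 1.33 in the DMSO libraries and 1.89 and 1.64 in the MAPK13-IN-1 libraries, without overlap between the groups. In the FPKM of replicate 1, a table normalized separately, it was 0.782 with DMSO and 0.993 with MAPK13-IN-1.

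The *Slc43* carriers move branched-chain amino acids, phenylalanine and methionine without sodium. *Slc43a2* (LAT4), at chr11:75531694-75577575 on the plus strand, had 1027 and 1040 counts with DMSO and 1357 and 1306 with MAPK13-IN-1, or 39.8, 38.2, 38.2 and 38.5 CPM. The groups overlapped after scaling, and the log2 fold change was −0.02 (95% confidence interval −0.20 to 0.15, Benjamini-Hochberg adjusted p = 0.802 in edgeR), with a value of 0.10 under library totals alone. Replicate 1 gave 3.10 FPKM with DMSO and 4.87 FPKM with MAPK13-IN-1 (log2 ratio 0.52), the only transporter of the 8 at 1 FPKM or more with a ratio above 0 there. *Slc43a2* shares 922 exon bases with the antisense gene *Gm45606*, which the matrix does not list under that symbol, and reads of the pair cannot be told apart without strand.

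*Slc43a1* (LAT3), at chr2:84838850-84863594 on the plus strand, was among the less abundant members, with 125 and 112 counts with DMSO and 128 and 160 with MAPK13-IN-1. Its levels of 4.84, 4.12, 3.60 and 4.72 CPM overlapped between the groups. The log2 fold change was −0.11 (standard error 0.199, 95% confidence interval −0.55 to 0.33, Benjamini-Hochberg adjusted p = 0.656 in edgeR), and under library totals alone it was 0.02. That interval spans 0.684 to 1.26 times the DMSO level, the widest of the 3 genes that did not pass. Replicate 1 gave 1.48 and 1.46 FPKM. Among the *Slc43* genes *Slc43a3*, which is listed with the relatives below and is known as a purine nucleobase transporter, was lower.

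*Slc6a9* (GlyT1), at chr4:117834506-117875198 on the plus strand, encodes a sodium- and chloride-dependent glycine transporter. It had 2199 and 2544 counts with DMSO and 350 and 486 with MAPK13-IN-1, or 85.2, 93.5, 9.86 and 14.3 CPM. The groups were separated by a wide gap, and the MAPK13-IN-1 libraries differed from each other by more, relative to their level, than the DMSO libraries did. The fall was 7.40-fold (log2 fold change −2.89, 95% confidence interval −3.19 to −2.58). In replicate 1 the values were 25.9 and 4.82 FPKM. *Slc6a9* shares exon bases with genes on the opposite strand, 1429 with *Ccdc24*, 46 with *B4galt2* and 511 with *Gm17114*, the last of which the matrix does not list. The kit of replicates 2 and 3 is not stated to keep the strand, so reads in the shared bases could have been assigned to either gene. *Ccdc24* had only 24, 28, 13 and 14 counts and *B4galt2* 118, 109, 32 and 39 counts, and these genes are named for their position.

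*Slc6a19* (B0AT1), at chr13:73679745-73704865 on the minus strand, encodes a sodium-dependent carrier of neutral amino acids best known from the apical membrane of the intestine and the kidney. It was the only one of the 9 called higher, with 37 and 72 counts with DMSO and 208 and 231 with MAPK13-IN-1. Its levels were 1.43, 2.65, 5.86 and 6.81 CPM, and the groups did not overlap although the DMSO libraries differed widely. The log2 fold change of 1.63 had a 95% confidence interval of 1.07 to 2.18, and leaving out DMSO replicate 3 gave 2.13, leaving out DMSO replicate 2 gave 1.24. In replicate 1 *Slc6a19* had 0.156 FPKM for DMSO and 0.146 FPKM for MAPK13-IN-1. *Cltrn*, whose product escorts this carrier to the membrane in the kidney, was at 0 counts in all 4 libraries. A count of 3 was worth 0.116, 0.110, 0.0845 and 0.0885 CPM in these libraries, a limit that covers counting error only. The erythroid and macrophage markers given above were higher in the same MAPK13-IN-1 libraries. In replicate 1, where *Slc6a19* was not higher, these sums went from 1.00 to 2.03 FPKM and from 3.29 to 11.0 FPKM with MAPK13-IN-1. A link between these markers and *Slc6a19* was not tested.

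*Slc16a10* (TAT1), at chr10:40033532-40142258 on the minus strand, encodes a facilitator of aromatic amino acids and thyroid hormones. Its counts were 743 and 776 with DMSO and 223 and 282 with MAPK13-IN-1, or 28.8, 28.5, 6.28 and 8.32 CPM. The DMSO libraries were nearly equal, and both stood above both MAPK13-IN-1 libraries. The fall was 3.93-fold (log2 fold change −1.97, 95% confidence interval −2.27 to −1.68). Replicate 1 had 6.27 FPKM with DMSO and 2.58 FPKM with MAPK13-IN-1.

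Levels of different transporter genes in the count libraries were compared per length, as CPM per kilobase of the exon bases that all GENCODE M21 transcripts of a gene cover (3926 bases for *Slc1a4* to 17236 for *Slc38a1*). Where cells use shorter transcripts, this scale understates a level. *Slc1a5* led in both groups, with 142 ± 6.36 in DMSO-treated cells and 55.3 ± 1.40 in MAPK13-IN-1-treated cells (CPM per kilobase, SD, n = 2 per group). In DMSO-treated cells it was followed by *Slc1a4* (23.7), *Slc38a2* (21.0), *Slc6a9* (17.4), *Slc38a1* (15.2), *Slc16a10* (3.90), *Slc43a2* (3.88), *Slc43a1* (0.784) and *Slc6a19* (0.407). Of these neighbours only *Slc16a10* and *Slc43a2* overlapped in their ranges.

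The order was different in MAPK13-IN-1-treated cells. There *Slc1a5* was followed by *Slc38a2* (21.0), *Slc38a1* (11.9), *Slc1a4* (6.04), *Slc43a2* (3.82), *Slc6a9* (2.35), *Slc6a19* (1.27), *Slc16a10* (0.992) and *Slc43a1* (0.728 CPM per kilobase), and the ranges of no neighbours overlapped. *Slc38a2* passed *Slc1a4*, *Slc38a1* passed *Slc1a4* and *Slc6a9*, *Slc43a2* passed *Slc6a9* and *Slc16a10* (the latter at an overlapping level with DMSO), and *Slc6a19* passed *Slc16a10* and *Slc43a1*. On the FPKM scale of replicate 1, *Slc1a5* (211 FPKM) was followed by *Slc38a1* (49.9), *Slc38a2* (39.0), *Slc6a9* (25.9) and *Slc1a4* (12.2) with DMSO. *Slc38a1* and *Slc38a2* thus stood above *Slc6a9* and *Slc1a4* there already with DMSO. With MAPK13-IN-1 the values there were 116 for *Slc1a5*, 28.8 for *Slc38a1*, 28.6 for *Slc38a2*, 4.82 for *Slc6a9* and 3.78 FPKM for *Slc1a4*, so that *Slc43a2* (4.87 FPKM) stood above both of the latter. *Slc43a2* also passed *Slc16a10* in replicate 1, from 3.10 against 6.27 to 4.87 against 2.58 FPKM. *Slc6a19* passed neither *Slc16a10* nor *Slc43a1* there, at 0.146 against 2.58 and 1.46 FPKM with MAPK13-IN-1.

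Summed over the 9 genes, the level per length was 223 and 233 with DMSO and 103 and 104 CPM per kilobase with MAPK13-IN-1, 45.4% of the DMSO mean. The sum in replicate 1 was 349 FPKM with DMSO and 191 FPKM with MAPK13-IN-1, 54.8%. *Slc1a5* made up 69.3% of the drop in the count libraries. Its own share of the sum was 61.6% and 62.7% with DMSO and 52.9% and 54.1% with MAPK13-IN-1, whereas in replicate 1 it was 60.4% and 60.7%. *Slc38a2* took a larger share of the smaller sum, 9.63% and 8.81% with DMSO and 21.9% and 18.8% with MAPK13-IN-1. The rise in its share was smaller in replicate 1, from 11.2% to 14.98%, where *Slc38a2* itself was at a lower FPKM with MAPK13-IN-1. The share of *Slc6a9* went from 7.45% and 7.80% to 1.86% and 2.68%, and in replicate 1 from 7.42% to 2.52%. A share can rise because other members fell, and these shares carry no test.

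**Figure D2:**
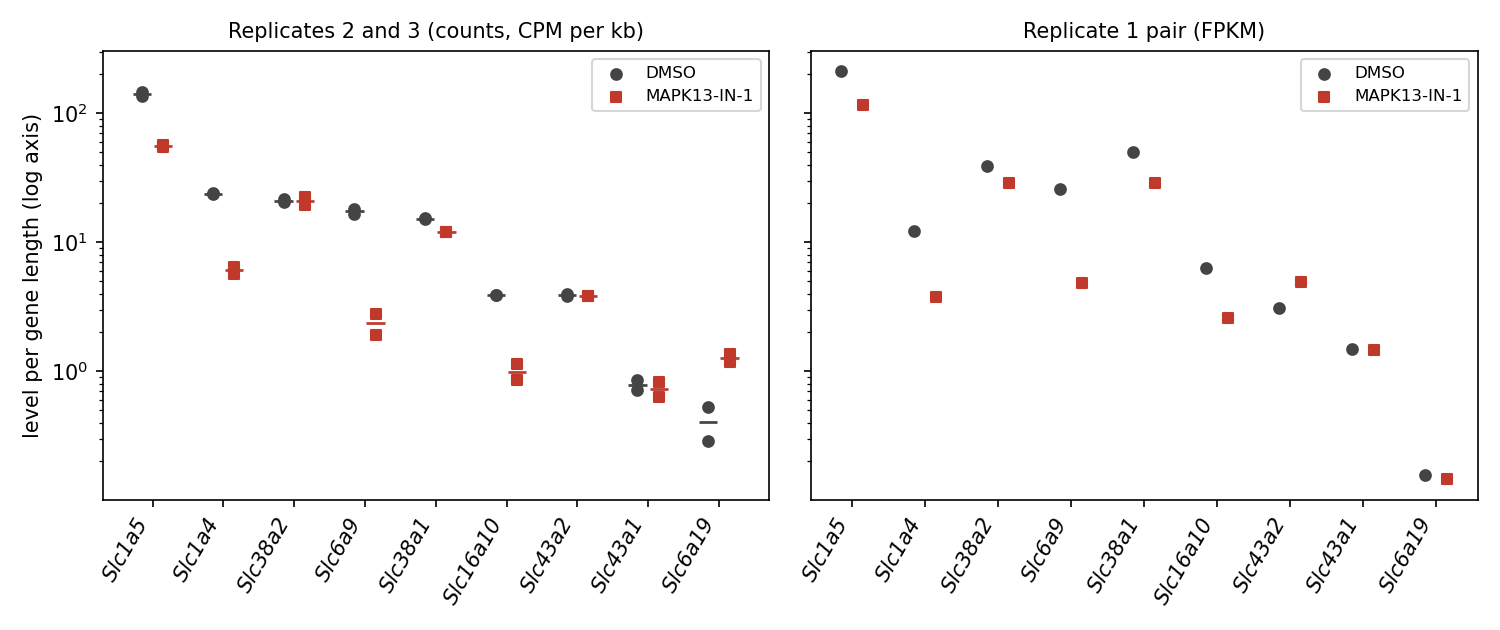
Level of each transporter gene per gene length on a log axis (y axis) by gene (x axis), in CPM per kilobase for replicates 2 and 3 (left, a point per library and a line at the mean of 2) and in FPKM for the replicate 1 pair (right, a point per library). Circles are DMSO and squares are MAPK13-IN-1. *Slc1a5* stands highest in every library, from 142 to 55.3 on the left in the group means, while *Slc38a2* is at 21.0 in both groups on the left.

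Other carriers were counted for comparison. Of 46 further genes of the *Slc1*, *Slc38*, *Slc43*, *Slc6* and *Slc16* families, 23 passed the filter. Of these 23, 7 were lower, 7 higher and 9 not called, beside 32.3% of all genes tested called lower and 31.5% higher. The median log2 fold change of the 23 was 0.13, and 8 of the 46 were at 0 counts in all 4 libraries. *Slc16a6* (−2.25), *Slc43a3* (−1.91) and *Slc16a3* (−0.91), a lactate carrier, had the smallest p-values among those lower, and *Slc6a12* (2.61), *Slc1a1* (1.91), a glutamate carrier, and *Slc16a8* (1.59) among those higher, as log2 fold changes. The replicate 1 values were 14.9 and 13.6 FPKM for *Slc16a6* and 14.6 and 12.7 FPKM for *Slc16a3*, much smaller differences, while *Slc43a3* had 59.6 FPKM for DMSO and 29.6 FPKM for MAPK13-IN-1. *Slc6a12*, *Slc1a1* and *Slc16a8* were, like *Slc6a19*, at low levels, with 20 and 22, 32 and 21, and 28 and 47 counts in the DMSO libraries. Their replicate 1 values with DMSO and MAPK13-IN-1 were 0 and 0.136, 0.288 and 0.783, and 0.213 and 0.607 FPKM. All of them were higher with MAPK13-IN-1 there, unlike *Slc6a19*, but all of these values were below 1 FPKM, with 1 library per group.

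The *Slc7*, *Slc3* and *Slc36* carriers had 14 of 21 genes tested, with a median log2 fold change of −0.80. Of the 14, 9 were lower and 2 higher, beside 32.3% of all genes tested called lower and 31.5% higher. *Slc7a5* (−2.19), *Slc7a3* (−2.58) and *Slc7a1* (−1.26), a carrier of cationic amino acids, had the smallest p-values among those lower. The 2 called higher were *Slc3a1* (3.07) and *Slc36a1* (0.97), a proton-coupled carrier of small amino acids. *Slc7a1* was at 421, 454, 173 and 191 CPM and *Slc36a1* at 22.0, 20.7, 43.8 and 39.8 CPM, without overlap between the groups for either. Per length, *Slc1a5* was below *Slc7a5* in the DMSO libraries, at 137 and 146 against 159 and 168 CPM per kilobase. In the MAPK13-IN-1 libraries *Slc1a5*, at 54.4 and 56.3, was above *Slc7a5*, at 34.7 and 37.1 CPM per kilobase. On the FPKM scale of replicate 1 *Slc1a5* was above *Slc7a5* in both groups, at 211 against 142 for DMSO and 116 against 41.5 for MAPK13-IN-1.

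The gene with the most similar profile was sought for each transporter among the 37 other carrier genes tested, as the smallest root mean square difference of centred log2 CPM over the 4 count libraries. For *Slc1a5* it was *Slc7a1* (0.0562), for *Slc1a4* it was *Slc7a5* (0.112), for *Slc6a9* it was *Slc7a3* (0.176) and for *Slc16a10* it was *Slc43a3* (0.0732). *Slc38a1* was nearest to *Slc16a1* (0.0605), *Slc6a19* to *Slc16a8* (0.0921), *Slc43a1* to *Slc36a4* (0.116), and *Slc38a2* and *Slc43a2* both to *Slc38a7* (0.0938 and 0.0393). Since 4 libraries in 2 groups shape these profiles mostly by the size of the group difference, they describe likeness in that difference.

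Regulators and partners of these carriers were also read out. *Atf4*, a transcription factor of the amino acid response, was at 543, 549, 286 and 264 CPM, and its groups did not overlap (log2 fold change −0.99, Benjamini-Hochberg adjusted p = 2.50e-07 in edgeR). Replicate 1 also had lower *Atf4*, with 249 and 118 FPKM. *Myc*, a transcription factor induced by T cell stimulation, was at 265, 295, 132 and 147 CPM (49.9% of the DMSO level, Benjamini-Hochberg adjusted p = 1.19e-06 in edgeR), whereas replicate 1 had 55.0 FPKM with DMSO and 73.7 FPKM with MAPK13-IN-1. *Rnf5*, a ubiquitin ligase that acts on the products of *Slc1a5* and *Slc38a2*, was lower in the count libraries (log2 fold change −0.79) and was at 21.4 and 26.9 FPKM in replicate 1.

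*Nedd4*, a further ubiquitin ligase, had a log2 fold change of −0.38 and was called lower. *Nedd4l*, which acts on the product of *Slc38a2*, was at 20.3, 21.7, 25.2 and 24.0 CPM and did not pass (log2 fold change 0.23, Benjamini-Hochberg adjusted p = 0.0553 in edgeR). *Sgk1*, a kinase that restrains such ligases, was at 8.49, 11.0, 11.9 and 10.6 CPM, overlapped between the groups and did not pass either (log2 fold change 0.21, Benjamini-Hochberg adjusted p = 0.239 in edgeR). For *Myc* and *Rnf5* the direction thus differed between the count libraries and replicate 1, and that difference was not tested. Replicate 1 had another kit and no stated dose or day of addition, and these cannot be told apart.

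Promoter sequences, 250 bases before to 50 bases after a listed start, came from RefSeq (GRCm38.p6), which had entries for 7 of the 9 genes in the table used. *Slc1a5* and *Slc38a1* had none there. Each was searched on both strands for TGATGNAA, an amino acid response element bound by ATF4 with partners, for CACGTG, the E-box bound by MYC, and for CTTTGAT, a core of TCF and LEF sites. Among 32851 promoters of the same length, 3.97% held the first, 7.15% the second and 3.73% the third. *Slc1a4* had 1 match to the first on the opposite strand, read here as TTGCATCA from base 247 of its 300 bases, so that it runs across the listed start. *Slc43a1* had 1 E-box, from base 187. No match to any of the motifs was found in the listed windows of *Slc38a2*, *Slc43a2*, *Slc6a9*, *Slc6a19* and *Slc16a10*. A match is a description of these letters and says nothing of binding.

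The windows of the 4 genes with the smallest adjusted p-values among those with an entry are shown, since 3 of them belong to genes that fell together and the last to the gene that rose. They are chr11:20332664-20332963 (minus strand) for *Slc1a4*, chr4:117835008-117835307 (plus strand, the first of 3 listed starts) for *Slc6a9*, chr10:40142205-40142504 (minus strand) for *Slc16a10* and chr13:73692587-73692886 (minus strand) for *Slc6a19*, whose listed start lies inside the span that GENCODE gives the gene. Sequences run 5′ to 3′ on the strand of the gene, and capitals mark the match to the amino acid response element.
Slc1a4: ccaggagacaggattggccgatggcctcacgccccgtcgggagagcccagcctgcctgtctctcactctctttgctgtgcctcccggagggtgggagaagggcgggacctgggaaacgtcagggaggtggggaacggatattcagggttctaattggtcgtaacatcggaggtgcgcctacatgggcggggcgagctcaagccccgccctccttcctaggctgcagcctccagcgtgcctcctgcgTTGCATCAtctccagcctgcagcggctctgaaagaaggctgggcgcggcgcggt
Slc6a9: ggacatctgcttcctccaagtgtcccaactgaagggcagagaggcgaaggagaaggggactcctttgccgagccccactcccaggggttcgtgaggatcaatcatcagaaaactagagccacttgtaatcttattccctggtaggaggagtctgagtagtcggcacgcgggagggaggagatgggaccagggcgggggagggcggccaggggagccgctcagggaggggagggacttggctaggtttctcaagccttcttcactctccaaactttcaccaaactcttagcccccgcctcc
Slc16a10: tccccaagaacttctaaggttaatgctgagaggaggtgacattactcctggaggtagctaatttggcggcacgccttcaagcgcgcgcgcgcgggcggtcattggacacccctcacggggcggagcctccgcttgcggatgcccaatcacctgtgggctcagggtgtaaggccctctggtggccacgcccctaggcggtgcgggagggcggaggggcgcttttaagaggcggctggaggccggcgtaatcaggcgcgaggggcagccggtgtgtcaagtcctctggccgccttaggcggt
Slc6a19: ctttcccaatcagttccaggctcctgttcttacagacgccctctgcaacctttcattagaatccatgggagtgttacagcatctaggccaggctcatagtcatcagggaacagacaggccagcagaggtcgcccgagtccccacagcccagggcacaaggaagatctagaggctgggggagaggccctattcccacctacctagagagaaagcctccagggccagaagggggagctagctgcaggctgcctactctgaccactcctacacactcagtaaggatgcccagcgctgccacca
Their GC content was 65.0%, 59.0%, 65.3% and 57.3% in this order.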

How the data were processed

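For replicates 2 and 3 the authors deposited whole-number, unnormalized counts per gene, and for replicate 1 they deposited a normalized value per gene, read here as FPKM because the ratio of CPM to this value rose with gene length (r = 0.587 and slope 0.712 on log2 scales across 9604 genes, which are not independent). The submitters' processing notes name, across the libraries, fastp 0.21.0, HISAT2 2.1.0, StringTie 2.1.5 and DESeq2 1.30.1 without roles, FastQC and the GRCm38 build. The annotation is not given in the sources used here.

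The count analysis used edgeR 4.0.16 in R 4.3.3: filterByExpr (minimum count 10, minimum total 15), TMM factors of 0.960 and 0.955 for DMSO and 1.05 and 1.04 for MAPK13-IN-1, and a quasi-likelihood test of 2 against 2 libraries with no covariate, adjusted by the Benjamini-Hochberg method over 16269 genes. The code was tested on simulated data. Replicates differed by more than sampling noise (mean chi-square per gene 3.08 for DMSO and 9.60 for MAPK13-IN-1), and the common biological coefficient of variation was 0.0659. Replicate 1 ratios used a pseudocount of 1 FPKM. Tables were normalized separately, so tests stayed within the count table.

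The genes and lists were chosen with earlier results of these data known. Named were all 9 genes, from each carrier list the 3 lower and 3 higher genes of smallest p-value, the regulators, the nearest carrier of each gene, the most abundant marker of each list and markers at 0, and promoters of up to 4 genes by adjusted p. Of the regulators and partners, 1 gene is not reported here. Alternatives were RLE, upper-quartile and library-total scaling, other filters, a replicate block, DESeq2 1.42.0, each library left out, an adjusted p under 0.01, and a pseudocount of 0.1. Centring the replicate 1 ratios on the median gene was added after seeing the data.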

Additional observations from a re-analysis of the deposited data

Results flagged for a closer look

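*Slc6a19* was higher with MAPK13-IN-1 in the libraries made with poly-T beads and slightly lower in the pair from the stranded kit. Its log2 ratio of MAPK13-IN-1 to DMSO was −0.013 in the replicate 1 pair (0.156 and 0.146 FPKM, pseudocount 1), and 2.03 and 1.36 between the libraries numbered 2 and 3 on the CPM scale. The difference was not tested, the replicate 1 values are close to 0, and their depth is unknown.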

How the results depend on the processing

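The 6 calls among the 9 transporter genes, 5 lower and 1 higher, were made for the same 6 genes and in the same direction under all alternatives run, namely RLE, upper-quartile and library-total scaling, no filter, at least 10 counts in every library, the replicate block, DESeq2, an adjusted p under 0.01 and each library left out. The median log2 fold change of the 9 genes was −0.27 with upper-quartile scaling, −0.23 with library totals alone and −0.31 with at least 10 counts in every library, and −0.38 to −0.34 with each library left out. Scaling by library totals shifted all genes, from a median of 0.01 to 0.14. Among the *Slc7*, *Slc3* and *Slc36* carriers, 8 were lower with RLE, upper-quartile or library-total scaling and at an adjusted p under 0.01. With DESeq2, 7 of these carriers were lower. Of the further family genes, 6 were lower with upper-quartile or library-total scaling, 8 with the replicate block and 9 with no filter.

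Reversals of sign concerned the 3 genes that did not pass the test, and the cause was not tested. *Slc43a2* was at 0.0568 with upper-quartile scaling, 0.101 with library totals alone and 0.0211 with at least 10 counts in every library, and *Slc43a1* at 0.0174 with library totals alone. With each library left out, *Slc38a2* ranged from −0.101 to 0.0933, *Slc43a1* from −0.319 to 0.0764, *Slc6a9* from −3.19 to −2.64, *Slc1a4* from −2.07 to −1.89, *Slc1a5* from −1.41 to −1.32, *Slc38a1* from −0.38 to −0.34, *Slc43a2* from −0.0619 to −0.0076, *Slc16a10* from −2.20 to −1.78 and *Slc6a19* from 1.24 to 2.13. In these fits the lone library of a group is assumed to vary like the others.

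Deviations of same-numbered libraries correlated at −0.00641 across 16269 genes, so the values showed no pairing by replicate number. A single contrast of this kind cannot show whether same-numbered libraries shared an animal or culture, which the labels do not give. With the replicate number as a block, *Slc38a2* was at −0.000294, no call among the 9 genes changed, and 5384 genes were lower and 5261 higher, against 5252 and 5122 without it. Over all genes, upper-quartile scaling gave 4633 lower and 5823 higher, library totals alone 4304 and 6170, and each library left out 4433 to 5675 lower and 4298 to 5268 higher. With a pseudocount of 0.1 the replicate 1 log2 ratios were −1.66 for *Slc1a4*, 0.64 for *Slc43a2*, −2.40 for *Slc6a9* and −1.25 for *Slc16a10*, and centring on the median gene, added after seeing the data, moved each by 0.05. With 2 libraries per group, genes with counts as low as those of *Slc43a1* and *Slc6a19* have wide intervals, and replicate 1 has no replicate within its kit.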
